A study of Homo sapiens with 18 samples.

Results

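The replication-dependent histone genes supply most of the histone protein that packages newly made DNA. The set described here holds the protein-coding genes whose GENCODE 29 symbol starts with HIST1H, HIST2H, HIST3H or HIST4H, which gave 71 genes among the 58051 gene identifiers of the deposited tables. By the protein they encode, 6 are linker H1 genes, 17 are H2A genes, 18 are H2B genes, 15 are H3 genes and 15 are H4 genes. Of these genes 55 lie on chromosome 6, 15 on chromosome 1 and 1 on chromosome 12 (GRCh38). RNA-seq was run on NCI-H460, an established line from a large cell lung cancer that the labels give as wild type, and on 2 populations of it that resist the combination of all-trans retinoic acid (ATRA) with decitabine. The labels do not say whether a resistant population is a single clone, nor how resistance was selected. The groups were resistant 1, resistant 2 and parental cells given 2 µM ATRA with 50 µM decitabine (doses and units as the labels give them, not checked against another source), and resistant 1, resistant 2 and parental cells given DMSO at 0.7%. All were grown in the same serum-supplemented medium and harvested at 72 h. There were 3 biological replicates in each of the 6 groups, 18 libraries in all. Nothing says that replicates came from separately started cultures, so p-values measure the spread between these libraries, which may be technical.

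Most replication-dependent histone mRNAs are made in S phase and end in a conserved stem-loop in place of a poly(A) tail. The stem-loop is bound by SLBP, which carries the mRNA through 3′ processing, translation and decay. Some of these genes, HIST1H1C, HIST1H2BK and HIST1H2BD among them, are also known to give transcripts with a poly(A) tail in cells that leave the cell cycle or differentiate. The libraries were made with a poly(A)-selecting kit, so the counts follow transcripts with a tail and are no measure of the whole histone mRNA of a cell. Decitabine is a cytidine analogue that enters replicating DNA and traps DNA methyltransferases, and ATRA is a ligand of the retinoic acid receptors.

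The stem-loop is shown for the members with the highest levels or the largest changes, because it marks where the usual histone mRNA ends. Each sequence is the sense strand of the GENCODE 29 transcript, 5′ to 3′, with the 16-base stem-loop in capitals and 5 bases on either side.
HIST1H2AC: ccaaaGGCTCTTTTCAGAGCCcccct
HIST3H2A: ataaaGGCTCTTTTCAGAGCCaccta
HIST1H2BD: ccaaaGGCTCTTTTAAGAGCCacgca
HIST1H2BH: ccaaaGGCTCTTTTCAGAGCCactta
HIST2H2BE: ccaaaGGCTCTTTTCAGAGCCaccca
HIST1H3G: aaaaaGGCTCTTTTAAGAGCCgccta
HIST1H3H: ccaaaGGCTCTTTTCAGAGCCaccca
HIST1H4H: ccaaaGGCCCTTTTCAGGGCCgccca
HIST4H4: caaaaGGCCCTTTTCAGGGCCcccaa
The search took only 16-base stretches that start with GG, end with CC and hold TTT right after the first 6 bases. At least 5 of the 6 stem bases had to pair. The likeness of the stem-loops shown is therefore in large part set by the search. The annotated transcript ran on past the stem-loop by 1114 bases in HIST1H2AC, by 1729 bases in HIST2H2BE, by 1640 bases in HIST1H2BH and by 630 bases in HIST1H4H, but by only 39 bases in HIST1H2BD. A stem-loop was found in the annotated transcripts of 31 members. It was found in 20 of the 30 members that could be tested under DMSO, against 11 of the 41 that could not. At least 100 annotated bases followed it in 16 of the 30 tested members and in 6 of the 41 others. The annotation held nothing beyond the coding sequence for 7 of the 30 tested members, against 26 of the 41 others. The stem-loop lies past the coding sequence, so it could not be found in those members. The contrast between tested and other members was therefore in part set by the annotation. No stem-loop was found in the annotated transcripts of HIST1H1C, HIST1H1E, HIST1H2BK, HIST1H2BJ and HIST1H3E, which says nothing of transcripts outside the annotation or of stem-loops of another pattern. HIST1H1C and HIST1H2BK are annotated as coding sequence alone, so the search could not have found one there.

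A gene was tested in a table if at least 10 normalized counts were reached in at least 3 of its 9 libraries. Under DMSO 30 members passed (2 H1, 6 H2A, 14 H2B, 3 H3 and 5 H4), 29 had reads but stayed below that level, and 12 had no read in any DMSO library. In the table of treated cells 38 members passed, and 30 of those could be used after the lost decimal points of that table were restored (2 H1, 5 H2A, 13 H2B, 5 H3 and 5 H4). Both tables gave 27 tested members in common and 33 in at least 1. Every tested member reached the minimum in libraries of more than 1 group. Some would not have passed without the parental libraries: HIST2H2AC and HIST1H1E under DMSO, and HIST1H1E, HIST1H3J and HIST2H3D under treatment. Where these members were called lower in resistant cells, the filter in part set that outcome. Of the 12 members at 0, 5 share more than 90% of their 50-base windows with another annotated gene, and the other 7 share none. HIST1H3D and HIST1H2AD overlap AL031777.3 on the same strand, and that gene had normalized counts of 32.1, 25.5 and 45.4 in resistant 1, 24.7, 41.6 and 48.9 in resistant 2, and 8.86, 4.79 and 9.74 in parental cells under DMSO. Among the 30 members tested under DMSO, 8 share more than 10% of their windows with another gene and 5 have an exon that overlaps a gene on the other strand. The strand setting of the counting is not given in the sources used here. The values of HIST1H2BK (74.1% shared, mostly with H2BFS), HIST2H4A (97.5%), HIST1H4K (100%), HIST1H2AI (62.3%), HIST2H2AC (30.5%), HIST2H2BF (25.7%), HIST1H2BO (13.55%) and HIST1H2BL (10.9%) are therefore uncertain, as are those of HIST1H2BE, HIST1H2BN and HIST1H2AK for their overlaps. The same holds for HIST2H3D (80.4%) and HIST1H3J (40.9%, with an overlap with HIST1H2AM on the same strand), which were tested under treatment alone.

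Recovered reads per library ranged from 112954249 to 180622615 in treated cells and from 116877643 to 140921034 under DMSO. The epithelial keratin genes KRT8 and KRT18 were high in all 3 populations under DMSO, with KRT8 at 116834 ± 23731 in resistant 1, 78253 ± 21914 in resistant 2 and 87429 ± 14728 normalized counts in parental cells (SD, n = 3 each). The epithelial adhesion gene EPCAM was at 3.90 ± 1.89 in resistant 1, 3.88 ± 0.605 in resistant 2 and 93.5 ± 8.84 normalized counts in parental cells. KRT19 averaged 188443 normalized counts for resistant 1 under DMSO, against 31026 for resistant 2 and 84570 for the parental line. Its call was higher for resistant 1 (1.14 ± 0.22 on the log2 scale) and lower for resistant 2 (-1.49 ± 0.22). KRT18, though high, was called lower than in the parental line for both, at -0.66 ± 0.093 and -0.60 ± 0.093. CDH1, the last of the 5 epithelial genes followed, had almost no reads under DMSO. It averaged 0.00796 in resistant 1, 0.00923 in resistant 2 and 0.0122 CPM in parental cells (reads scaled to a common library total).

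Markers of other cell types were followed as lists, and their part in the results below was not tested. The lung epithelium genes NKX2-1 and NAPSA, the 2 of 5 listed that could be tested, were both higher than in parental cells under DMSO, in resistant 1 (log2 fold changes 1.36 ± 0.47 and 1.15 ± 0.25) and in resistant 2 (3.54 ± 0.47 and 1.41 ± 0.25), while the alveolar gene SFTPB was at 0 in all DMSO libraries. The summed level of 3 lung epithelium genes spanned 81.6 to 91.7 normalized counts in resistant 1, 126 to 214 in resistant 2 and 29.2 to 49.8 in parental cells. Of the 3 endothelial genes, VWF was higher in resistant 1 (1.51 ± 0.30), VWF and PECAM1 were higher in resistant 2 (1.01 ± 0.30 and 3.86 ± 0.72), and all 3 rose with treatment in parental cells. Their sum spanned 814 to 1092 in treated parental cells, and under DMSO 23.7 to 41.5 in resistant 1, 38.4 to 57.5 in resistant 2 and 6.70 to 12.8 in parental cells. CD68, a macrophage gene and the 1 immune gene of 4 that could be tested under DMSO, was higher in resistant 1 (1.80 ± 0.37) and did not pass the test in resistant 2 (0.91 ± 0.37), and the T cell gene CD3E did not exceed 1.09 on average in any DMSO group. Of 4 fibroblast genes tested, resistant 1 had 1 higher and 3 lower and resistant 2 had 2 higher and 1 lower, and their sum spanned 454 to 516 in resistant 1, 3059 to 4080.5 in resistant 2 and 2793 to 3000.2 in parental cells.

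Few members carried most of the signal. Over the 9 DMSO libraries HIST1H1C, which encodes linker histone H1.2, gave 23.0% of all member counts, HIST1H2BK 19.4% and HIST1H2AC 14.9%, which made 57.3% together. With HIST2H2BE (6.84%), HIST1H2BD (5.81%), HIST3H2A (5.69%) and HIST1H4H (4.66%) the share came to 80.3%. Per kilobase of exon, the level of HIST1H1C was 4057 in resistant 1, 6994 in resistant 2 and 1014 normalized counts in parental cells under DMSO. On the same scale HIST1H2BK stood at 5413 in resistant 1, 6536 in resistant 2 and 5240.3 in parental cells. HIST1H2BK was therefore the higher in resistant 1 and parental cells, and HIST1H1C in resistant 2. These levels use the annotated exon length, which is the coding sequence alone in both genes (642 bases in HIST1H1C and 381 in HIST1H2BK) but 2194 bases in HIST2H2BE. The order of members per kilobase thus depends in part on how far each gene was annotated.

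The summed level of the 56 members whose values could be read in every library lay lowest in parental cells under DMSO and highest in resistant 2 under DMSO. In treated cells it was 76.5 ± 15.2 CPM in resistant 1 (reads scaled to a common library total with TMM factors), 102 ± 11.7 in resistant 2 and 132 ± 4.45 in parental cells (SD, n = 3 each). Under DMSO it was 93.1 ± 15.04 in resistant 1, 145 ± 13.9 in resistant 2 and 52.0 ± 5.56 in parental cells. The highest groups overlapped, with 133 to 160 CPM in DMSO resistant 2 and 129 to 137 in treated parental cells. The ranges of the resistant populations and of parental cells did not overlap in either condition, and their order was opposite in the 2 conditions. In bulk samples fewer cells that express a gene and less RNA per cell cannot be told apart.

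**Figure D1:**
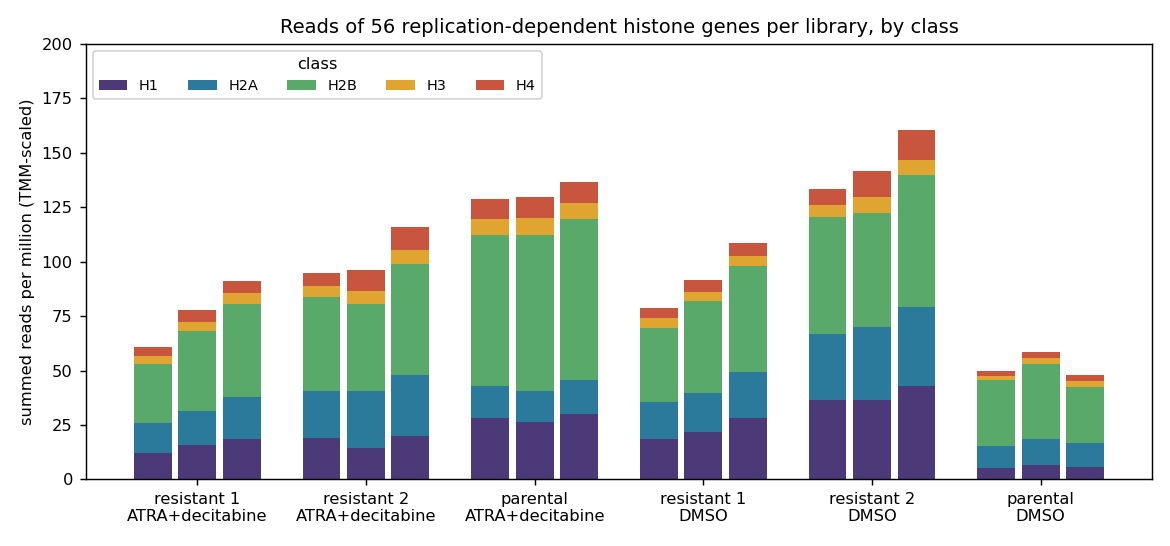
Summed CPM (TMM-scaled) of the members in each library, split by histone class, with treated libraries left of DMSO libraries and resistant 1, resistant 2 and parental cells in that order. The treated parental libraries averaged 132 CPM and the DMSO parental libraries 52.0, and linker H1 and H2B made up most of the difference.

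The next comparisons asked how the resistant populations differed from parental cells without drug. Under DMSO most replication-dependent histone genes that moved were higher in the resistant cells, among them the linker histone gene HIST1H1C and the core histone genes HIST1H2AC, HIST1H2BD and HIST1H4H. In resistant 1, 14 of the 30 tested members were higher and 3 lower than in parental cells (limma, Benjamini-Hochberg adjusted p under 0.05). Of all 21643 genes tested in that comparison 55.9% were called, 29.3% higher and 26.6% lower. The members' median log2 fold change was 0.57, beside 0.0064 for all genes. In resistant 2, 20 of 30 members were higher and 1 was lower, where 61.9% of all genes were called, 32.1% higher and 29.8% lower. There the members' median log2 fold change was 1.05, beside 0.019 for all genes. Both comparisons use the same parental libraries. Higher in both populations were 14 members, and HIST2H2AC was the 1 member lower in both. The share of all genes called alike in both is not given here, so these joint counts have no background beside them. Fold changes are on the scale of log2(normalized count + 1), which understates the change of genes with low counts.

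By class, in resistant 1 the higher calls fell on 1 of 2 H1, 2 of 6 H2A, 7 of 14 H2B, 2 of 3 H3 and 2 of 5 H4 members. In resistant 2 they fell on 1 of 2 H1, 5 of 6 H2A, 8 of 14 H2B, 2 of 3 H3 and 4 of 5 H4 members. Summed over the members of a class, the H1 level was 3.91 times the parental one in resistant 1 and 6.74 times in resistant 2. For H4 the ratio was 2.24 in resistant 1 and 4.67 in resistant 2, for H3 1.94 in resistant 1 and 2.86 in resistant 2, for H2A 1.78 in resistant 1 and 3.18 in resistant 2, and for H2B 1.39 in resistant 1 and 1.89 in resistant 2. The H1 ratio rests on HIST1H1C, which supplies nearly all of the H1 counts.

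Under treatment the order was the other way round. In cells given ATRA and decitabine, 1 of 30 tested members was higher and 23 were lower in resistant 1 than in parental cells, where 66.1% of all 22013 tested genes were called, 33.3% higher and 32.7% lower. In resistant 2, 1 of 30 was higher and 18 were lower, where 71.3% of all genes were called, 36.3% higher and 35% lower. The members' median log2 fold change was -0.85 in resistant 1 and -0.66 in resistant 2, beside 0.0033 in resistant 1 and 0.026 in resistant 2 for all genes. Lower in both populations were 16 members, and HIST1H2AC was the 1 member higher in both. The comparisons again share the parental libraries. In each resistant population 9 members were lower than in parental cells under treatment and higher under DMSO, with HIST1H1C, HIST1H2BG, HIST2H2BE and HIST2H2BF among the 9 in both. The shares of all genes with these pairs of calls are not given here.

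By class, the lower calls in treated resistant 1 covered 2 of 2 H1, 3 of 5 H2A, 10 of 13 H2B, 4 of 5 H3 and 4 of 5 H4 members. In treated resistant 2 they covered 2 of 2 H1, 2 of 5 H2A, 9 of 13 H2B, 3 of 5 H3 and 2 of 5 H4 members. The summed H2B level was 0.502 of the parental one in resistant 1 and 0.634 in resistant 2, the H1 level 0.558 in resistant 1 and 0.640 in resistant 2, the H4 level 0.515 in resistant 1 and 0.935 in resistant 2, and the H3 level 0.585 in resistant 1 and 0.789 in resistant 2. Summed H2A was 1.11 times the parental level in resistant 1 and 1.75 times in resistant 2.

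**Figure D2:**
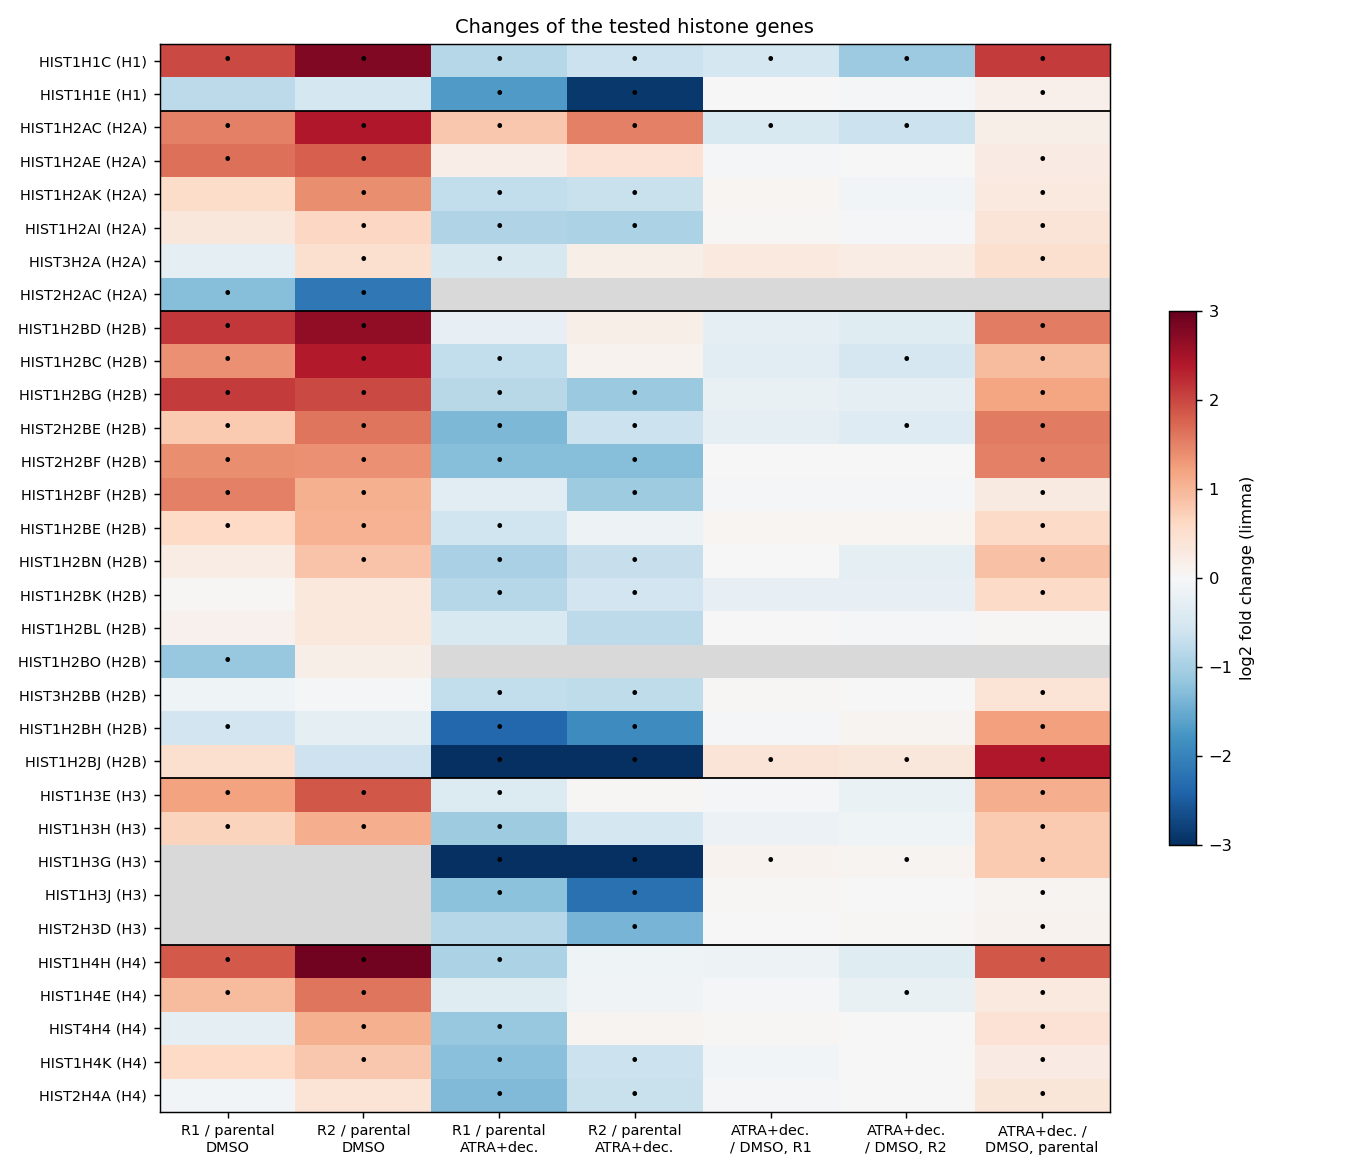
Log2 fold change of 32 of the 33 tested members (rows, by class) in 7 comparisons (columns), with colour limited to 3 in either direction, dots for an adjusted p under 0.05 and grey for members not tested. The resistant-against-parental columns are mostly positive under DMSO and mostly negative under ATRA with decitabine, and the response column of parental cells is positive.

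Linker histone H1 binds the DNA between nucleosomes and compacts chromatin. HIST1H1C had normalized counts of 1788, 2324 and 2644 in treated resistant 1, 2738, 2128 and 2906 in treated resistant 2 and 4061, 3760.5 and 4233 in treated parental cells. Under DMSO it had 2103, 2489 and 3221 in resistant 1, 4198, 4308 and 4965 in resistant 2 and 589.8, 720.1 and 643 in parental cells. Every resistant library was below every parental library under treatment and above every one of them under DMSO. Under treatment the log2 fold change against parental cells was -0.85 ± 0.15 in resistant 1 and -0.64 ± 0.15 in resistant 2 (SE). Under DMSO it was 1.98 ± 0.15 in resistant 1 (adjusted p = 1.15e-06, limma) and 2.79 ± 0.15 in resistant 2 (adjusted p = 5.55e-08, limma). HIST1H1E, which encodes linker histone H1.4, had 7.69, 8.91 and 14.5 normalized counts in treated resistant 1, 3.99, 2.30 and 5.57 in treated resistant 2 and 44.3, 25.6 and 36.6 in treated parental cells. All 6 treated resistant libraries were below the 3 parental ones, with log2 fold changes of -1.69 ± 0.36 in resistant 1 and -2.90 ± 0.36 in resistant 2, whereas under DMSO neither population passed the test. HIST1H1E reached the minimum for a test only with its parental libraries.

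H2A pairs with H2B, and each nucleosome holds a pair of these dimers. HIST1H2AC had normalized counts of 1231, 1382 and 1659.7 in treated resistant 1, 1770.5, 2686 and 2527 in treated resistant 2 and 774, 815 and 824 in treated parental cells. In DMSO it had 1437, 1522 and 1752 in resistant 1, 2551, 3060.5 and 3105 in resistant 2 and 457, 562 and 635 in parental cells. The 3 populations did not overlap in either condition, and resistant 2 was the highest in both. The log2 fold change under treatment was 0.81 ± 0.16 in resistant 1 (adjusted p = 0.000769, limma) and 1.51 ± 0.16 in resistant 2 (adjusted p = 4.76e-06, limma), and under DMSO it was 1.52 ± 0.15 in resistant 1 and 2.40 ± 0.15 in resistant 2.

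HIST3H2A, an H2A gene on chromosome 1, had 707, 774 and 912 normalized counts in treated resistant 1, 1275, 1156 and 1349 in treated resistant 2 and 1136, 1019 and 1197 in treated parental cells. Its DMSO counts were 440.1, 475 and 545 in resistant 1, 872, 738 and 887 in resistant 2 and 589.8, 665 and 538 in parental cells. Under treatment resistant 1 lay below parental cells (-0.49 ± 0.12) and resistant 2 did not pass the test (0.17 ± 0.12), while under DMSO resistant 1 overlapped the parental libraries (-0.30 ± 0.14) and resistant 2 lay above them (0.48 ± 0.14). HIST2H2AC, at 6.08, 4.55 and 13.5 in resistant 1, 4.11, 3.20 and 3.26 in resistant 2 and 29.5, 15.3 and 15.2 in parental cells under DMSO, was lower in both resistant populations, but the call in resistant 1 was lost without resistant 1 replicate 1 or 2 or parental replicate 1 (limma adjusted p of 0.0694 to 0.0907). HIST2H2AC reached the minimum for a test only with its parental libraries.

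H2B was the class with the most tested members. HIST2H2BE, on chromosome 1, had normalized counts of 603, 802 and 719 in treated resistant 1, 1018, 1090.3 and 1319 in treated resistant 2 and 1737, 1854 and 1770.3 in treated parental cells. Under DMSO it had 615, 785 and 682 in resistant 1, 1096, 1282 and 1258 in resistant 2 and 355, 452 and 393 in parental cells. No resistant library overlapped the parental ones in either condition. The log2 fold change under treatment was -1.34 ± 0.13 in resistant 1 and -0.65 ± 0.13 in resistant 2, and under DMSO it was 0.79 ± 0.14 in resistant 1 and 1.60 ± 0.14 in resistant 2.

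HIST1H2BD, a further H2B gene, had 584, 771 and 922 normalized counts in treated resistant 1, 884, 1037 and 1090.1 in treated resistant 2 and 818, 896 and 944 in treated parental cells. These groups overlapped, and neither resistant population passed the test (-0.25 ± 0.16 in resistant 1 and 0.18 ± 0.16 in resistant 2). With DMSO it had 630.2, 718 and 851 in resistant 1, 1003, 1119 and 1053 in resistant 2 and 136, 175 and 192 in parental cells, with no overlap. The log2 fold change was 2.13 ± 0.16 in resistant 1, the largest of the members there, and 2.67 ± 0.16 in resistant 2.

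HIST1H2BJ was the member with the largest difference under treatment. Its normalized counts were 92.3, 111 and 71.9 in treated resistant 1, 51.8, 49.5 and 81.4 in treated resistant 2 and 751, 699 and 790.2 in treated parental cells. Under DMSO they were 21.7, 30.9 and 28.01 in resistant 1, 12.3, 7.46 and 17.4 in resistant 2 and 16.7, 29.7 and 12.99 in parental cells. The treated resistant libraries were all below the parental ones, at log2 fold changes of -3.03 ± 0.22 in resistant 1 (adjusted p = 3.73e-07, limma) and -3.63 ± 0.22 in resistant 2 (adjusted p = 5.66e-08, limma), while the 3 populations overlapped under DMSO and neither resistant one passed the test. HIST1H2BH had 92.3, 195 and 126 in treated resistant 1, 178, 198 and 175 in treated resistant 2 and 485, 813 and 786 in treated parental cells, with log2 fold changes of -2.36 ± 0.26 in resistant 1 and -1.88 ± 0.26 in resistant 2. Under DMSO it was lower in resistant 1 (-0.57 ± 0.20), a call that was lost without resistant 1 replicate 1 or 3 or parental replicate 1, 2 or 3 (limma adjusted p of 0.052 to 0.107).

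HIST1H2BK, the H2B gene with the highest level per kilobase, had 1553, 2123 and 2918 normalized counts in treated resistant 1, 2583, 2132 and 3167 in treated resistant 2 and 4159, 3530.0 and 3831 in treated parental cells. All treated resistant libraries were below the parental ones, with log2 fold changes of -0.85 ± 0.20 in resistant 1 and -0.56 ± 0.20 in resistant 2, but the call in resistant 2 was lost without resistant 2 replicate 1 or 2 or parental replicate 1 or 3 (limma adjusted p of 0.0582 to 0.107). Under DMSO the counts were 1552, 1897 and 2738 in resistant 1, 2359, 2067 and 3045 in resistant 2 and 2183, 2301 and 1506 in parental cells. These groups overlapped and neither resistant population passed the test.

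Among the H2B members with fewer counts, HIST1H2BG had 151, 157 and 218 normalized counts in treated resistant 1, 113, 147 and 169 in treated resistant 2 and 264, 349.6 and 318 in treated parental cells. In the DMSO libraries it had 137, 179 and 233 in resistant 1, 155, 163 and 177 in resistant 2 and 27.6, 51.7 and 48.7 in parental cells. The resistant libraries were all below the parental ones under treatment and all above them under DMSO. HIST2H2BF gave log2 fold changes of -1.27 ± 0.17 in resistant 1 and -1.29 ± 0.17 in resistant 2 under treatment, against 1.40 ± 0.27 in resistant 1 and 1.37 ± 0.27 in resistant 2 under DMSO. HIST1H2BC was lower in treated resistant 1 (-0.75 ± 0.19) and did not pass the test in treated resistant 2 (0.10 ± 0.19), and it was higher in both under DMSO (1.37 ± 0.20 in resistant 1 and 2.38 ± 0.20 in resistant 2).

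H3 and H4 form the tetramer at the centre of the nucleosome. HIST1H3E, the H3 member with the most counts, had 387, 439.9 and 475 normalized counts in treated resistant 1, 572, 634 and 567 in treated resistant 2 and 566, 592 and 571 in treated parental cells. Under DMSO it had 357, 335 and 363 in resistant 1, 476, 597 and 578 in resistant 2 and 136, 152 and 166 in parental cells. Under treatment resistant 1 was lower (-0.41 ± 0.12) and resistant 2 overlapped the parental libraries (0.036 ± 0.12), whereas under DMSO both lay above parental cells, at log2 fold changes of 1.22 ± 0.15 in resistant 1 and 1.85 ± 0.15 in resistant 2. HIST1H3G had 12.1, 15.6 and 14.5 in treated resistant 1, 9.30, 14.97 and 14.5 in treated resistant 2 and 119, 114 and 124 in treated parental cells. No treated resistant library came near the parental ones, with log2 fold changes of -2.998 ± 0.24 in resistant 1 and -3.13 ± 0.24 in resistant 2. It stayed below the minimum under DMSO, so its treated difference has no DMSO test beside it.

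HIST1H4H had the highest level per kilobase of the H4 class in every group. Its normalized counts were 415, 582 and 529.5 in treated resistant 1, 539.7, 1072 and 1224 in treated resistant 2 and 951, 999.5 and 986 in treated parental cells. Under DMSO they were 393, 473 and 489 in resistant 1, 568, 1096 and 1313 in resistant 2 and 107, 112 and 165 in parental cells. Replicate 1 of resistant 2 was the lowest of its group in both conditions and the nearest to resistant 1. Under treatment resistant 1 was lower than parental cells (-0.96 ± 0.25) and resistant 2 did not pass the test (-0.13 ± 0.25). Under DMSO both lay above parental cells, at log2 fold changes of 1.83 ± 0.29 in resistant 1 (adjusted p = 0.000239, limma) and 2.89 ± 0.29 in resistant 2 (adjusted p = 5.48e-06, limma).

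HIST4H4, the 1 member on chromosome 12, had 68.1, 73.5 and 74.2 normalized counts in treated resistant 1, 179, 179.6 and 147 in treated resistant 2 and 153, 175 and 149 in treated parental cells. Resistant 1 was below both other populations there, and was the one that passed the test against parental cells (-1.13 ± 0.16, against 0.085 ± 0.16 in resistant 2). Its counts under DMSO were 51.2, 51.9 and 50.2 in resistant 1, 137, 148 and 115 in resistant 2 and 57.1, 67.03 and 63.9 in parental cells. Resistant 2 stood above both other populations (1.07 ± 0.19 against parental cells), while resistant 1 did not pass the test (-0.29 ± 0.19).

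**Figure D3:**
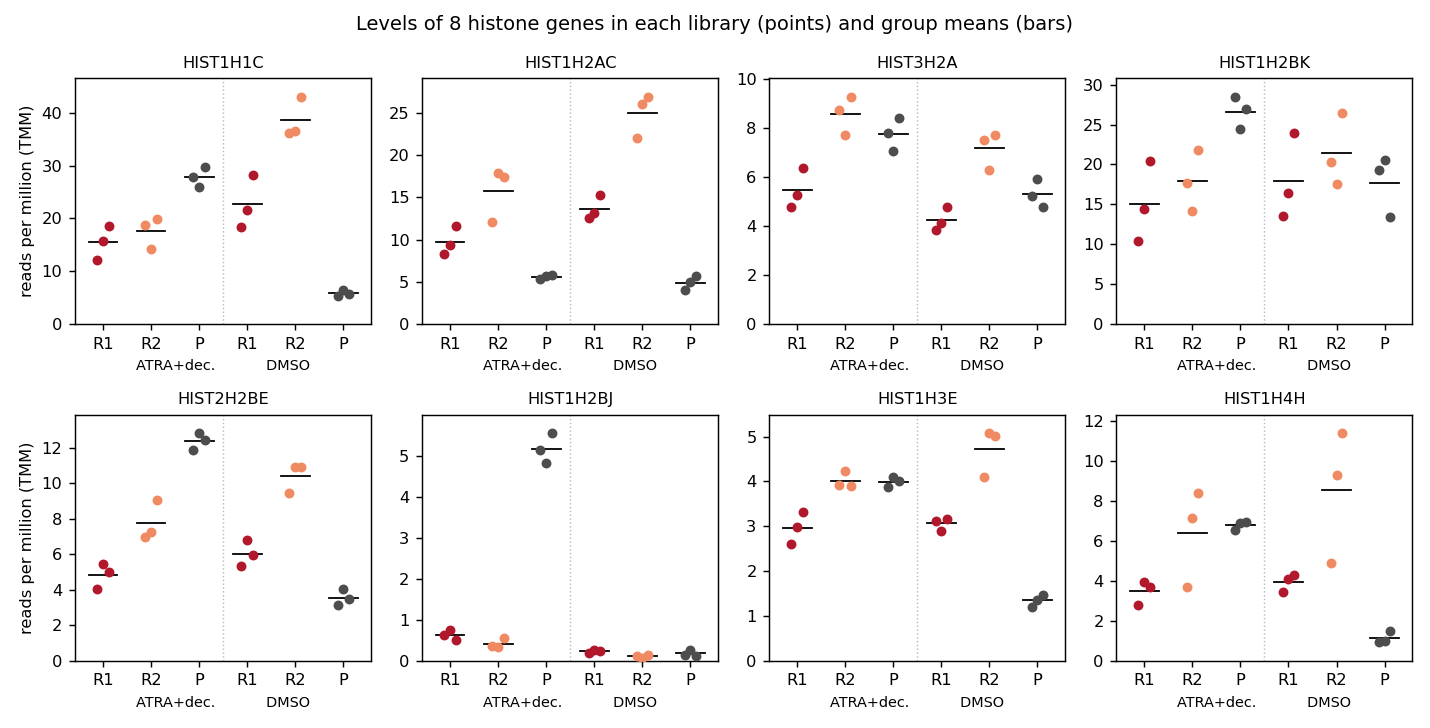
CPM (TMM-scaled) of 8 leading members in each library (points) with group means (bars), treated groups left of DMSO groups and resistant 1, resistant 2 and parental cells in that order. HIST1H1C averaged 27.9 CPM in treated parental cells, against 5.79 in DMSO parental cells, and HIST1H2AC is the panel in which the treated parental bar stays below both treated resistant bars.

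Set against each other, resistant 1 was lower than resistant 2 for most members that moved. Under DMSO 12 of 30 members were lower and 1 was higher in resistant 1, where 53.4% of all genes were called, 27.4% higher and 26% lower. The largest of the differences among members over 50 counts were those of HIST4H4 (-1.36 ± 0.19), HIST1H4H (-1.05 ± 0.29), HIST1H2BC (-1.01 ± 0.20) and HIST1H2AC (-0.89 ± 0.15). The 1 member that was higher, HIST1H2BJ (1.11 ± 0.38), lost that call without resistant 1 replicate 2 or 3 or resistant 2 replicate 2 (limma adjusted p of 0.0689 to 0.108). Under treatment 9 of 30 were lower and 4 were higher in resistant 1, where 57% of all genes were called, 29.1% higher and 27.9% lower, so the share of members that were lower was near that of all genes. The split of the treated calls moved with the processing. Quantile normalization called 13 members, all of them lower (28.9% of all genes higher and 27.5% lower). The lack of a filter gave 1 higher and 7 lower (18.5% of all genes higher and 16.3% lower). A fit of both resistant populations alone with the replicate block gave 1 higher and 9 lower (51.4% of all genes called). HIST4H4 was again lower (-1.21 ± 0.16), as was HIST1H2BC (-0.84 ± 0.19). Without resistant 2 replicate 2 the treated count of called members was 7 in place of 13.

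Treatment itself was compared within each population on CPM scaled over all 18 libraries. In parental cells nearly every tested member rose: 28 of 30 were higher with ATRA and decitabine than with DMSO and 0 were lower, where 65.9% of all 22552 genes were called, 33% higher and 32.9% lower. All 30 changes were above 0 in this fit, so 0 members were lower at an unadjusted p under 0.05. By edgeR and DESeq2 on the reads 0 members were called lower as well. Quantile normalization called 1 lower (40.5% of all genes), and the fit with no filter called 2 lower (19.1% of all genes). The members' median log2 change was 0.52, beside -0.0069 for all genes. Changes and differences of responses are on the scale of log2(CPM + 1), which strongly understates those of members below a few CPM. The median ratio of the 30 members' group means was 2.64 in parental cells, and it was 0.938 in resistant 1 and 0.863 in resistant 2. HIST1H2BJ averaged 5.18 ± 0.360 CPM in treated and 0.176 ± 0.0786 in DMSO parental cells (SD, n = 3 each), a ratio of 29.4. HIST1H1C averaged 27.9 ± 1.87 in treated and 5.79 ± 0.610 in DMSO cells, a ratio of 4.82. The ratio was 15.3 for HIST1H3G, 6.28 for HIST2H2BF, 5.97 for HIST1H4H, 5.68 for HIST1H2BG and 3.48 for HIST2H2BE. Every class took part, with 2 of 2 H1, 4 of 5 H2A, 12 of 13 H2B, 5 of 5 H3 and 5 of 5 H4 members higher. The summed level in treated parental cells was 4.74 times the DMSO level for H1, 3.88 times for H4, 3.11 times for H3, 2.36 times for H2B and 1.37 times for H2A.

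The 2 tested members that did not pass in parental cells were HIST1H2AC and HIST1H2BL. HIST1H2AC averaged 5.58 ± 0.249 in treated and 4.90 ± 0.814 CPM in DMSO parental cells, with a log2 change of 0.17 ± 0.15 (adjusted p = 0.351, limma). HIST1H2BK rose by 0.58 ± 0.24 on the log2 scale, a call that was lost without parental DMSO replicate 3 or resistant 1 ATRA plus decitabine replicate 2 or parental ATRA plus decitabine replicate 1, 2 or 3 (limma adjusted p of 0.0507 to 0.185). Under quantile normalization HIST1H1E, HIST2H3D, HIST1H3J, HIST3H2BB and HIST1H2BL had changes below 0 in parental cells, and the count of members called was 17, with 16 higher. That fit called 69.5% of all genes, 29% higher and 40.5% lower.

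In the resistant populations the same comparison called 4 of 30 members in resistant 1 and 7 of 30 in resistant 2. Resistant 1 had 2 of 30 members higher and 2 lower with treatment, where 27.9% of all genes were called, 15.2% higher and 12.7% lower. Resistant 2 had 2 higher and 5 lower, where 17.7% of all genes were called, 10.6% higher and 7.08% lower. Under quantile normalization 1 member was higher and 9 were lower in resistant 1 (27.6% of all genes called), and 1 was higher and 11 were lower in resistant 2 (17.1% of all genes called). HIST1H2BJ was higher in both, at 0.627 ± 0.127 treated and 0.234 ± 0.0406 DMSO CPM in resistant 1 and 0.415 ± 0.126 treated and 0.107 ± 0.0436 DMSO CPM in resistant 2. HIST1H1C was lower in both: it averaged 15.4 ± 3.22 treated and 22.7 ± 4.99 DMSO CPM in resistant 1 (log2 change -0.53 ± 0.16; adjusted p = 0.0237, limma), and 17.6 ± 3.06 treated and 38.6 ± 3.86 DMSO in resistant 2 (-1.10 ± 0.16; adjusted p = 0.000166, limma). In resistant 1 the HIST1H1C call was lost without resistant 1 DMSO replicate 3 or resistant 1 ATRA plus decitabine replicate 1 or 2 (limma adjusted p of 0.0542 to 0.122). HIST1H2AC was also lower in both, at -0.45 ± 0.15 in resistant 1 and -0.64 ± 0.15 in resistant 2, and its call in resistant 1 was lost without resistant 1 DMSO replicate 2 or 3 or resistant 1 ATRA plus decitabine replicate 1 or 2 (limma adjusted p of 0.0641 to 0.135).

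Same-numbered libraries of a resistant population deviated together between the 2 conditions, and a fit of that population alone with the replicate number as a block called more members. It gave 3 higher and 9 lower in resistant 1, where that fit called 47.3% of all genes (23.2% higher and 24.1% lower). It gave 2 higher and 9 lower in resistant 2, where it called 27.1% of all genes (15.4% higher and 11.7% lower). HIST3H2A and HIST1H2BJ were then higher in both, and HIST1H1C, HIST1H2AC, HIST1H2BC, HIST1H2BD, HIST1H2BG, HIST1H2BK and HIST2H2BE were lower in both. Summed over the 56 members, the treated level was 0.822 of the DMSO level in resistant 1 and 0.704 in resistant 2, against 2.53 times in parental cells. For H1 alone it was 0.682 in resistant 1, 0.457 in resistant 2 and 4.74 in parental cells.

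The difference between the responses was tested directly. In resistant 1 the response was smaller than in parental cells for 24 of 30 members and larger for 0, where 45.2% of all genes differed, 21.6% upward and 23.6% downward. In resistant 2 it was smaller for 25 of 30 and larger for 0, where 51.3% differed, 25.3% upward and 26% downward. All 30 differences were below 0 in both populations in this fit, so 0 members had a larger response at an unadjusted p under 0.05. By edgeR and DESeq2 on the reads 0 members were called with a larger response as well. The fit with no filter called 1 in resistant 2 (14.1% of all genes). The differences of log2 change were -2.62 ± 0.23 in resistant 1 and -3.19 ± 0.23 in resistant 2 for HIST1H1C, -2.02 ± 0.35 in resistant 1 and -2.23 ± 0.35 in resistant 2 for HIST1H4H, and -1.83 ± 0.17 in resistant 1 and -1.95 ± 0.17 in resistant 2 for HIST2H2BE. Both rest on the same parental libraries. Of the 27 members tested in both tables, 17 had their highest group mean in treated parental cells, 8 in DMSO resistant 2 and 2 in treated resistant 2, and 18 had their lowest in DMSO parental cells. The same counts over all genes are not given here.

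Many histone genes lie head to head, so that a pair shares the stretch between its start sites. In 12 such pairs the members' levels were often unlike. Distances given here run between the annotated gene starts. For HIST2H2AC, HIST1H2BK and HIST1H2AH the annotation holds coding sequence alone, so it begins at the start codon. The RefSeq promoters place the starts of HIST1H2AC, HIST2H2BE, HIST2H2AC and HIST1H2BK elsewhere, so distances between start sites differ from these. The annotated starts of HIST1H2BC and HIST1H2AC lie 219 bases apart. HIST1H2BC averaged 251 ± 43.5 in resistant 1, 506 ± 83.9 in resistant 2 and 96.6 ± 16.5 normalized counts in parental cells under DMSO, and both members of the pair were higher in both resistant populations. With treatment HIST1H2BC rose in parental cells (log2 change 0.95 ± 0.14) while HIST1H2AC did not pass the test, a contrast that was not itself tested. HIST2H2BE and HIST2H2AC have annotated starts 323 bases apart. In that order they averaged 694 and 8.05 in resistant 1, 1212 and 3.52 in resistant 2, and 400.1 and 20.005 in parental cells under DMSO. The first was higher and the second lower in both resistant populations. HIST1H2BK and HIST1H2AH have annotated starts 331 bases apart. HIST1H2AH averaged 0.915 in resistant 1, 0.717 in resistant 2 and 2.59 in parental cells, below the minimum for a test.

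The stretch of 150 bases before the start site is shown for 4 members that differ in their response, from RefSeq on GRCh38.p14, 5′ to 3′ on the gene's own strand. Capitals mark the CAAT box (letters CCAAT), the TATA box (letters TATAAA) and the octamer (letters ATTTGCAT) on either strand. HIST1H1C lies on the minus strand at chr6:26056471-26056620, HIST1H2AC on the plus strand at chr6:26124022-26124171, HIST1H2BJ on the minus strand at chr6:27132796-27132945 and HIST1H4H on the minus strand at chr6:26285535-26285684.
HIST1H1C: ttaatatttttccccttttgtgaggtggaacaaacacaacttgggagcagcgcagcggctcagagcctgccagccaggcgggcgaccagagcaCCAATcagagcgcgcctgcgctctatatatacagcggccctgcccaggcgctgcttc
HIST1H2AC: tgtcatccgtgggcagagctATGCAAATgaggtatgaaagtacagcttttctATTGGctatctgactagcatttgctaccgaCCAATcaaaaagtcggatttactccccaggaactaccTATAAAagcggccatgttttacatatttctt
HIST1H2BJ: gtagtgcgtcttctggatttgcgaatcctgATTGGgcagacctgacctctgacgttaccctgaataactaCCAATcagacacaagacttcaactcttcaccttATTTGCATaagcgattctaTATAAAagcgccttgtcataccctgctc
HIST1H4H: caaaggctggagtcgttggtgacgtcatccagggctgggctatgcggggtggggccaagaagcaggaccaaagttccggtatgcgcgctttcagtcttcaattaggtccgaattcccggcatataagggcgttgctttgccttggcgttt
HIST1H2AC and HIST1H2BJ held all 3 motifs, HIST1H1C held CCAAT alone and HIST1H4H held none of them in this window. In the 250 bases before the start, CCAAT was found in 55 of the 65 RefSeq promoters of 61 members (84.6%), against 32.0% of all 35116 promoters of the same length. TATAAA was found in 43 of the 65 (66.2%, against 10.7% of all) and the octamer ATTTGCAT in 27 (41.5%, against 1.63%). The E2F-type letters TTTCCCGC were found in 1 of these promoters (1.54%, against 1.39%). Counted by member, CCAAT stood in at least 1 promoter of 51 of the 61, TATAAA of 41 and the octamer of 26. These are matches of letters, counted on both strands and not shown to be bound.

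Genes that act with the histone genes moved another way under DMSO. Of 38 S-phase genes tested, 37 were lower in resistant 1 than in parental cells (median log2 fold change -1.37), and 34 were lower in resistant 2 (median -1.95). The share of all genes that were lower there was 26.6% in resistant 1 and 29.8% in resistant 2. The replicative helicase gene MCM2 changed by -1.53 ± 0.29 in resistant 1 and -2.79 ± 0.29 in resistant 2, and the clamp gene PCNA by -0.61 ± 0.18 in resistant 1 and -0.80 ± 0.18 in resistant 2. In treated cells 31 of the S-phase genes were lower in resistant 1 (median -0.63), and 1 was higher and 29 lower in resistant 2 (median -0.70). The shares of all genes in treated cells were 32.7% lower in resistant 1, and 36.3% higher and 35% lower in resistant 2. With treatment 4 of the 38 rose in resistant 1, 29 rose in resistant 2, and 3 rose and 17 fell in parental cells. Among all genes 15.2% rose in resistant 1, 10.6% rose in resistant 2, and 33% rose and 32.9% fell in parental cells. Their summed level was 1876 ± 42.8 CPM in treated resistant 1, 1974 ± 452 in treated resistant 2 and 3139 ± 124 in treated parental cells, and 1733 ± 110.0 in DMSO resistant 1, 1385 ± 424 in DMSO resistant 2 and 4303 ± 417 in DMSO parental cells. The part of S phase in the members' levels was not tested.

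The genes that make and process histone mRNA were mostly lower as well. Of 34 genes for histone transcription and 3′ processing, 2 were higher and 25 lower in resistant 1 under DMSO (median -0.57), and 3 were higher and 23 lower in resistant 2 (median -0.73). The shares of all genes were 29.3% higher and 26.6% lower in resistant 1, and 32.1% higher and 29.8% lower in resistant 2. SLBP had 5752 ± 95.5 normalized counts in resistant 1, 4619 ± 309 in resistant 2 and 9262 ± 902 in parental cells under DMSO (SD, n = 3 each), at log2 fold changes of -0.68 ± 0.095 in resistant 1 and -1.001 ± 0.095 in resistant 2. It was also lower in treated resistant 1 (-0.69 ± 0.088) and treated resistant 2 (-0.77 ± 0.088), and its change in parental cells with treatment did not pass the test (-0.11 ± 0.083, and above 0 under quantile normalization). CASP8AP2, which takes part in histone gene transcription and mRNA processing, was lower under DMSO in resistant 1 (-0.90 ± 0.10) and resistant 2 (-0.83 ± 0.10). NPAT, the coactivator of histone genes that cyclin E and CDK2 act on, had 2516 ± 175 in resistant 1, 2697 ± 96.1 in resistant 2 and 3058 ± 316 in parental cells under DMSO and did not pass the test in resistant 2 (-0.18 ± 0.10). In treated resistant 1 it was lower (-0.46 ± 0.11).

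Of 21 genes for histone mRNA decay, 2 were higher and 13 lower in each resistant population under DMSO, and 17 fell with treatment in parental cells. ERI1, an exonuclease that trims the stem-loop end, was higher in treated resistant 2 than in treated parental cells (0.61 ± 0.087) and fell in parental cells with treatment (-0.68 ± 0.095). Of 29 histone chaperone and import genes, 1 was higher and 22 lower in resistant 1 under DMSO, 3 were higher and 24 lower in resistant 2, and with treatment 2 rose and 19 fell in parental cells. Beside both lists, 29.3% of all genes were higher and 26.6% lower in resistant 1 under DMSO. In resistant 2 32.1% were higher and 29.8% lower, and with treatment 33% rose and 32.9% fell in parental cells.

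The replication-independent histones, whose mRNAs carry a poly(A) tail, gave a further comparison. Of 22 listed, 13 could be tested under DMSO, with 1 higher and 10 lower in resistant 1 (median -0.86) and 9 lower in resistant 2 (median -0.60). With treatment 3 rose and 8 fell in parental cells. Among all genes 29.3% were higher and 26.6% lower in resistant 1 under DMSO, and 29.8% were lower in resistant 2. With treatment 33% of all genes rose and 32.9% fell in parental cells. H1F0, the linker histone of non-dividing cells, had 5481 ± 419 normalized counts in treated resistant 1, 6924 ± 956 in treated resistant 2 and 4147 ± 178 in treated parental cells. Under DMSO it had 3567 ± 229.7 in resistant 1, 3344 ± 1064 in resistant 2 and 7032 ± 817 in parental cells. Both resistant populations were above parental cells under treatment (0.40 ± 0.10 in resistant 1 and 0.73 ± 0.10 in resistant 2) and below them under DMSO (-0.97 ± 0.19 in resistant 1 and -1.12 ± 0.19 in resistant 2), which is the opposite order to HIST1H1C. H2AFZ, a variant H2A found at promoters, was lower in resistant 1 (-1.38 ± 0.090) and resistant 2 (-1.37 ± 0.090) under DMSO.

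RNAs that have no poly(A) tail were followed as well, and their part in the members' levels was not tested. Of 34 listed, 10 could be tested, with 4 lower in resistant 1 and 1 higher and 3 lower in resistant 2 under DMSO. The shares of all genes were 26.6% lower in resistant 1, and 32.1% higher and 29.8% lower in resistant 2. RN7SK, RMRP and RPPH1 were listed at 0 in all libraries. The summed level of 30 of them spanned 5.03 to 6.84 CPM in treated resistant 1, 5.51 to 7.50 in treated resistant 2 and 10.2 to 13.6 in treated parental cells. Under DMSO it spanned 5.90 to 7.89 in resistant 1, 5.50 to 6.61 in resistant 2 and 13.0 to 14.4 in parental cells. The members of this list did not move together: under DMSO SNORD17 was lower in resistant 2 (-2.12 ± 0.17) and RNU5A-1 was higher there (2.13 ± 0.34).

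**Figure D4:**
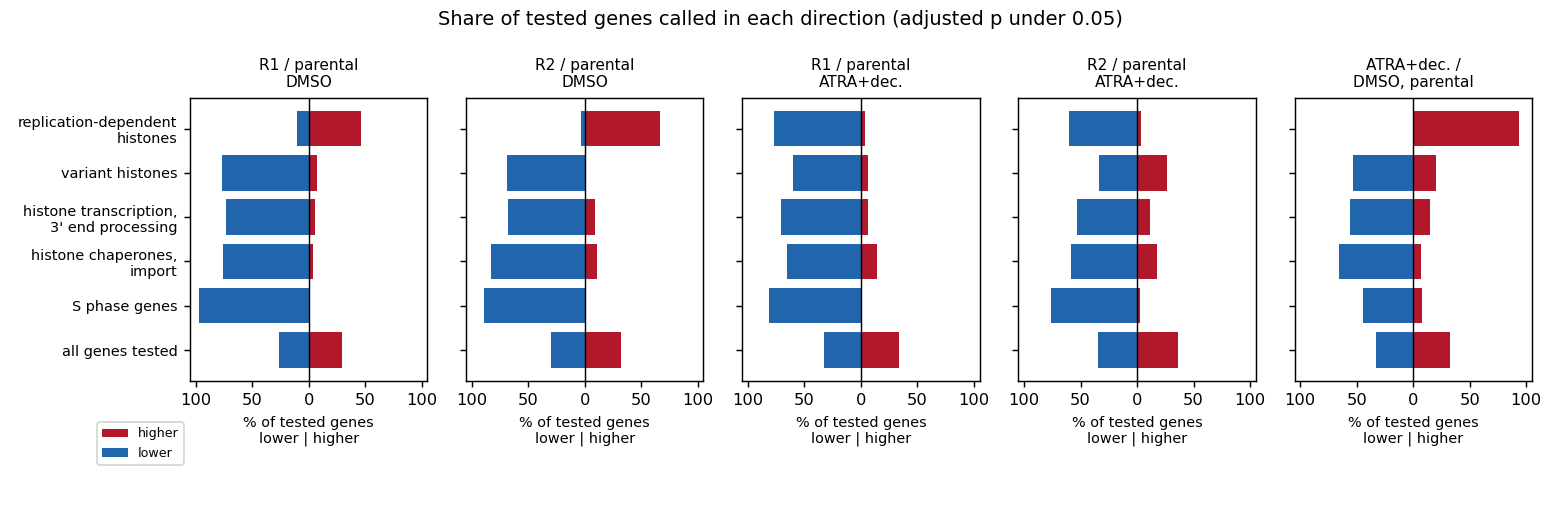
Share of the tested genes of each list called higher (right of 0) and lower (left of 0) in 5 comparisons. The histone members are more often higher than lower in the DMSO comparisons, where 37 of the 38 S-phase genes are lower in resistant 1 and 34 in resistant 2, and 28 of 30 members are higher with treatment in parental cells. Of all genes tested 26.6% are lower in resistant 1 and 29.8% in resistant 2 under DMSO, and 33% are higher with treatment in parental cells.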

How the data were processed

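Poly(A)-selected, stranded RNA-seq reads of 18 libraries were aligned to GRCh38 and counted by the authors with STAR and featureCounts, with DESeq2 also named, per the submitters' processing notes; no version is given there. The deposited DMSO table holds normalized counts (a signal per gene: reads divided by a size factor per library). All of its values came out as whole reads (100% within 0.01) once each library's size factor was recovered. The deposited table of treated cells has the same kind of value, but its decimal points were lost. They were restored gene by gene by comparing the possible readings under a count model with the DMSO levels, and a gene was used where 1 reading had a posterior of at least 99%. This resolved 22013 of 25208 genes at the minimum (87.3%), and 59.8% of those with a mean below 30. In a trial on the DMSO table, 94 of 19397 resolved genes had a wrong value, with 0 among 25 resolved members. The design assumed plain normalized values in both tables; the tests were kept.

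Within each table limma 3.58.1 (trend, R 4.3.3) was fitted to log2(normalized count + 1) over all 9 libraries of the 3 populations. Responses to treatment, and their differences, were fitted by limma to log2(CPM + 1) over all 18 libraries with TMM factors from edgeR 4.0.16. Genes needed 10 normalized counts in 3 libraries of a table. For the responses and their differences they needed 10 recovered reads in 3 of the 18 libraries, with the treated values resolved. Calls are at a Benjamini-Hochberg adjusted p under 0.05 over all genes tested. Sums carry SDs and no test. The fits were tested on simulated data, where the share of false calls exceeded the threshold for the parental response and for resistant 1 against parental cells under DMSO, so calls with an adjusted p near the threshold are less certain there. Alternatives were edgeR and DESeq2 1.42.0 on the reads, other scalings, filters and pseudocounts, a stricter posterior, fits of the compared groups alone, the replicate block and leaving out each library. The rule named, per comparison, up to 4 called members with the largest change in each direction above 50 normalized counts, the leading member of each class, members whose call changed direction, the only called members of a class, up to 3 genes per list, and SLBP, NPAT, CASP8AP2 and ERI1. HIST1H2BL, AL031777.3, HIST1H2AH and the other members and marker genes printed outside that rule were added after their values were seen. The members and the gene lists were chosen with earlier results of these data known.

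Same-numbered libraries share a number in the labels only. Their deviations from the group means correlated in every pair between resistant 1 and resistant 2 (0.146 to 0.501 under DMSO and 0.108 to 0.297 under treatment) and between the 2 conditions of resistant 1 (0.362 to 0.857) and of resistant 2 (0.743 to 0.848), but not in comparisons with parental cells, so the block is given for those comparisons of the resistant populations. Some differently numbered libraries correlated as well. Resistant 1 replicate 1 and resistant 2 replicate 2 did so at 0.247 under DMSO and 0.306 under treatment. DMSO replicate 2 and treated replicate 1 of resistant 1 did so at 0.502, against 0.362 for both replicates 2. Stem-loops, shared 50-base windows, overlaps and the distances of head-to-head pairs were read from GENCODE 29, and promoters from RefSeq on GRCh38.p14. No 2 libraries of a group agreed within counting noise.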

Additional observations from a re-analysis of the deposited data

Results flagged for a closer look

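Each value here was picked out because the response to treatment differed between a resistant population and parental cells by a test of the difference itself (limma, adjusted p under 0.05). In resistant 1 the response differed for 24 of 30 members, where 45.2% of all genes differed. The differences of log2 change were -2.62 for HIST1H1C, -2.02 for HIST1H4H, -1.997 for HIST1H2BJ and -1.83 for HIST2H2BE. In resistant 2 it differed for 25 of 30 members, where 51.3% of all genes differed, with -3.19 for HIST1H1C, -2.23 for HIST1H4H, -2.04 for HIST1H2BJ and -1.95 for HIST2H2BE. With a single library left out the counts were 20 to 27 in resistant 1 and 23 to 28 in resistant 2, and the shares of all genes in those fits are not given here. Both sets of values use the same parental libraries.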

How the results depend on the processing

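Counts of called members stayed within 1.5 times the values given above under TMM or DESeq2 scaling, a filter at 50, a pseudocount of 10, edgeR and DESeq2 in every comparison. At a stricter posterior for the restored decimal points, with 22 members left, they were 10 for resistant 2 against treated parental cells, 5 between the treated resistant populations (1 higher and 4 lower), and 2 and 4 for the responses of resistant 1 and resistant 2. In the same order, 67.1%, 51.7%, 25.9% and 16.7% of all genes were called at that posterior. Between the treated resistant populations the count was 8 with no filter (34.8% of all genes called) and also 8 from those groups alone (50.6% of all genes). The response of resistant 2 gave 3 from its groups alone (7.74% of all genes). Quantile normalization gave 17, 10 and 12 for the responses of parental, resistant 1 and resistant 2 cells, where it called 69.5%, 27.6% and 17.1% of all genes. The causes were not tested. Quantile normalization moved the median of all genes by about -0.12 and -0.11 in the DMSO comparisons of resistant 1 and resistant 2 with parental cells, with 12 members higher and 6 lower in resistant 1 and 17 higher and 2 lower in resistant 2. It called 26.2% of all genes higher and 31.8% lower in resistant 1, and 28.4% higher and 33.8% lower in resistant 2. In the parental response it turned the sign of SLBP (0.18), HIST1H1E (-0.037), HIST2H3D (-0.034), HIST1H2BL (-0.12), HIST3H2BB (-0.048) and HIST1H3J (-0.073). Without HIST1H1C the summed DMSO level of resistant 2 was 2.39 times the parental one, in place of 2.89.

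The replicate block over all 18 libraries gave 7 called members for the response of resistant 1 (29.7% of all genes called). The block within one population, added after seeing the data, gave 12 in resistant 1 (47.3% of all genes) and 11 in resistant 2 (27.1%). The replicate block moved no other count of called members by over 1.5 times.

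With 1 library left out, called members numbered 20 to 26 and 15 to 20 for treated resistant 1 and resistant 2 against parental cells, 7 to 14 between them, 14 to 17, 18 to 20 and 9 to 13 for the same comparisons under DMSO, and 25 to 28, 2 to 4 and 4 to 8 for the responses of parental, resistant 1 and resistant 2 cells. The response of resistant 1 gave 2 without its DMSO replicate 3 or its treated replicate 2, and that of resistant 2 gave 4 without its DMSO replicate 2 or 3 or its treated replicate 2. The shares of all genes called with 1 library left out are not given here. At this depth 29 members had reads under DMSO but too few for a test.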

Other observations

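H2BFWT, an H2B gene known from testis and outside the set by its name, differed between the resistant populations. In treated cells it averaged 137 ± 35.02 normalized counts in resistant 1, 3.74 ± 4.63 in resistant 2 and 117 ± 12.6 in parental cells (SD, n = 3 each). Under DMSO it averaged 33.9 ± 5.27 in resistant 1 and was at 0 in every resistant 2 and parental library. It rose with treatment in parental cells, where it was at 0 under DMSO.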
